A study of Mus musculus with 7 samples.

Results

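The regions described here are 691 sites bound by EKLF (gene Klf1) in fetal liver erythroblasts, but not listed in their progenitors, that lay close to coding exons of expressed genes. They were chosen from the 19353 intervals of the erythroblast peak list by 2 conditions: no base shared with any of the 7358 progenitor intervals, and an edge within 1 kb of the start of any coding exon in the study's RNA table. The first condition left 13376 erythroblast-only intervals, of which 5.17% met the second (Wilson 95% interval 4.80 to 5.55%, which covers counting error only). Because the choice was made on the peak lists themselves, the presence of these peaks in erythroblasts and their absence in progenitors is a description and was not tested.

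Erythroblasts were Ter119+CD71+ cells and progenitors were a pool of Ter119-CD71- and Ter119-CD71+ cells, all sorted from E13.5 livers of mice in which Klf1 carries a hemagglutinin tag (hemagglutinin-Klf1), so the tag is common to every group. EKLF was pulled down with an antibody against the tag (HA, F-7), and an input library of sheared chromatin taken through the protocol without antibody was made for each stage. The 7 samples were 1 ChIP, 1 input and 2 RNA libraries of erythroblasts and 1 ChIP, 1 input and 1 RNA library of progenitors. Peaks were deposited as 1 pooled list per stage and RNA as 1 column per stage, so no difference between stages has a replicate check, and no p-value is given. In sorted bulk cells, a change in the mix of cells and a change in RNA per cell cannot be told apart.

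EKLF is a zinc finger activator found in the erythroid lineage. It binds CACCC-type elements in promoters and enhancers, often beside sites for GATA1, and it is known for switching on adult beta-globin and for genes of heme synthesis, the red cell membrane skeleton and the cell cycle. Erythroblasts that carry Ter119 are the stage at which hemoglobin is made and the cell prepares to lose its nucleus. In the RNA table, 4 of 8 defining erythroid markers had listed exons (Hba-a1/Hba-a2, Gata1, Klf1 and Tfrc), against 1 of 45 markers of hepatocytes, macrophages, granulocytes, mast cells, megakaryocytes, B cells, endothelium and stroma. The table lists only exons with at least 0.800 in both columns, so a gene silent in either stage could not be seen.

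Promoters of 5 genes whose first coding exon start was covered by one of the 691 peaks were picked by the role of the gene, among those with a RefSeq window, and are printed to show which EKLF-type and GATA letters each one holds. Klf1 encodes EKLF itself, Klf6 is a related zinc finger factor, Cpox is an enzyme of heme synthesis, Gmpr is GMP reductase of purine salvage, and Cdc25b is a phosphatase that starts mitosis. Each line gives the 250 bases before the gene's start in RefSeq (build GRCm38.p6, plus strand, 5′ to 3′). Capitals mark matches on either strand to CCNCNCCC, a loose form of the CACCC element, or to AGATAA or TGATAA, the GATA motif. The windows are chr8:84901732-84901981 (Klf1), chr13:5861239-5861488 (Klf6), chr16:58669958-58670207 (Cpox), chr13:45507194-45507443 (Gmpr) and chr2:131186698-131186947 (Cdc25b). Peak positions are in build mm9, so the distance from a peak to its window was not measured.
Klf1: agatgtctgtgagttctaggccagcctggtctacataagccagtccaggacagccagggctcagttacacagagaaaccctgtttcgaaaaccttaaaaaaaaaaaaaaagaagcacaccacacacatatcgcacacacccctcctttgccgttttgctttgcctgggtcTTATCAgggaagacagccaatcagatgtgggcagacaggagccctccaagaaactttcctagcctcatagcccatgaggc
Klf6: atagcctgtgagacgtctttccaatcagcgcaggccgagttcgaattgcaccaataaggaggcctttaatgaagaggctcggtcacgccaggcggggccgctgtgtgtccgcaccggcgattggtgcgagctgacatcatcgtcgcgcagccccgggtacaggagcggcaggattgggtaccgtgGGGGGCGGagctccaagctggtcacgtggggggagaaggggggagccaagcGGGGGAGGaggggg
Cpox: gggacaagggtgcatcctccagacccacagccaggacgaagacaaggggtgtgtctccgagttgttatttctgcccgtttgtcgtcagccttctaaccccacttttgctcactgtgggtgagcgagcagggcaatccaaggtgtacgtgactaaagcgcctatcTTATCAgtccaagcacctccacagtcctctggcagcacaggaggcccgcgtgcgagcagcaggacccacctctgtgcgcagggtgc
Gmpr: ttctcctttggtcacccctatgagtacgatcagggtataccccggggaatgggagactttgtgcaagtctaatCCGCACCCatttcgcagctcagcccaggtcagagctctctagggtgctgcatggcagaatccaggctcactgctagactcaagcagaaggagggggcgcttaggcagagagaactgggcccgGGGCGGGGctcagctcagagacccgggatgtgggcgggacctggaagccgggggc
Cdc25b: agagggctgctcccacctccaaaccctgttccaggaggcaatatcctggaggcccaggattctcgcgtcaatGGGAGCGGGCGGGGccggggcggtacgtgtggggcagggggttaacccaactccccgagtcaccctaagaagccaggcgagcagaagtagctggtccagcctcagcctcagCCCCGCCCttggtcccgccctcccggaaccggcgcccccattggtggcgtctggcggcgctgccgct
The Klf1 and Cpox windows each held 1 GATA match and no CCNCNCCC match. The capitals do not mark the shorter core CACCC, which the Klf1 window holds and the Cpox window holds on the other strand. CCNCNCCC also takes in letters without that core, such as CCCCGCCC. The Klf6 and Gmpr windows each held 2 CCNCNCCC matches and the Cdc25b window held 3 of these, 2 of them overlapping, and none of the 3 windows held a GATA match.

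Over all genes within 1 kb of a peak, CCNCNCCC was about as frequent as over the genes of the RNA table. The GATA share was higher, but the lower end of its interval, 9.61%, was close to the 9.50% of all tested genes. That difference was not tested. Promoter windows of 300 bases, 250 before and 50 after the start, were found for 570 of the 700 named genes near a peak, 676 windows in all. CCNCNCCC was present in 66.6% of them (Wilson 62.9 to 70.02%), against 68.6% of the 5409 windows of all tested genes and 73.0% of the 885 windows of genes near a shared peak. A GATA match was present in 11.8% (9.61 to 14.5%), against 9.50% in all tested genes and 7.68% (6.11 to 9.63%) in genes near a shared peak. These shares count windows and not genes. A gene can have more than 1 window, and the intervals treat such windows as independent, so they are too narrow to that extent. Base composition moved with these shares: the median GC content was 60.5%, against 61.7% for all tested genes and 64.3% for genes near a shared peak, and its part in the shares was not tested. Over all 32851 windows of the RefSeq table CCNCNCCC was in 49.5% and a GATA match in 18.6%. A match says only that the letters are there.

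The 691 peaks were of ordinary width and of middle strength within the erythroblast list. Their width ran from 751 to 11768 bp with a median of 1693 bp, and 636 of them were between 1 and 3 kb wide. The authors' fold enrichment ran from 3.41 to 45.4 with a median of 10.6, and their -log10 p from 5.005 to 164 with a median of 9.88. The 840 erythroblast peaks near exons that did overlap a progenitor peak had medians of 1970 bp, 13.2 and 16.9, and the 12685 erythroblast-only peaks farther from exons had medians of 1681 bp, 8.87 and 8.82. Overlap with a second list depends on width and strength, so these medians are given with no test. Ranked by -log10 p, the erythroblast peaks near exons included 75 erythroblast-only peaks in the strongest 383 (19.6%), then 155 (40.5%), 217 (56.7%) and 244 of the weakest 382 (63.9%).

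**Figure D1:**
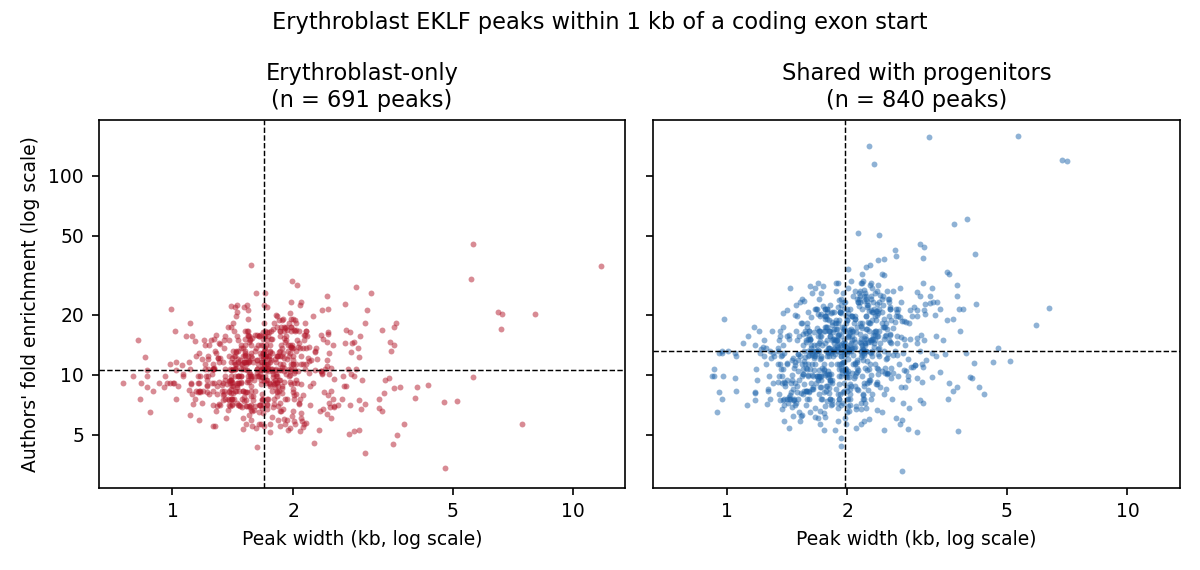
Width of each erythroblast peak within 1 kb of a coding exon start (x axis, kb, log scale) against the authors' fold enrichment (y axis, log scale), for 691 erythroblast-only peaks (left) and 840 peaks shared with progenitors (right); dashed lines are medians. The erythroblast-only cloud is centred at 1693 bp and 10.6, below the shared cloud at 1970 bp and 13.2, with a few peaks over 5 kb wide standing apart.

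The nearest progenitor interval was 78 bp away at the least and 40197 bp away at the median, against a median of 119736 bp for the erythroblast-only peaks farther from exons. It lay within 1 kb for 8 of the 691 peaks and within 5 kb for 63, while 175 (25.3%) were over 100 kb from any. At the edge of the 1 kb window the members just inside lay 980, 982 and 991 bp from an exon start (Exosc4, Garre1 and Gmpr, with enrichments of 8.33, 9.08 and 8.27). The intervals just outside lay 1011, 1016 and 1017 bp away (Med8, Clk2 and Ank1, with 14.4, 16.1 and 12.4).

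The rule asked for nearness to an exon start, so the positions that follow are descriptions with no test. Of the 691 peaks 529 (76.6%, Wilson 73.3 to 79.6%) covered an exon start outright, against 81.3% (78.5 to 83.8%) of the shared peaks near exons. The table numbers exons in genome order and gives their lower coordinate, so only on the forward strand is exon number 0 the exon with the start codon. Of 379 pairs of a peak and a forward-strand gene, 195 (51.5%, 46.4 to 56.4%) were at that first coding exon, against 282 of 446 (63.2%, 58.7 to 67.6%) for shared peaks. The peak's midpoint lay within 500 bp of the first coding exon's start in 186 of the 195, with a median of -40 bp and quartiles of -195 and 125 bp, and it lay upstream in 109. For shared peaks the median was -52 bp with quartiles of -242 and 118 bp, and no value expected for peaks chosen in this way was computed.

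**Figure D2:**
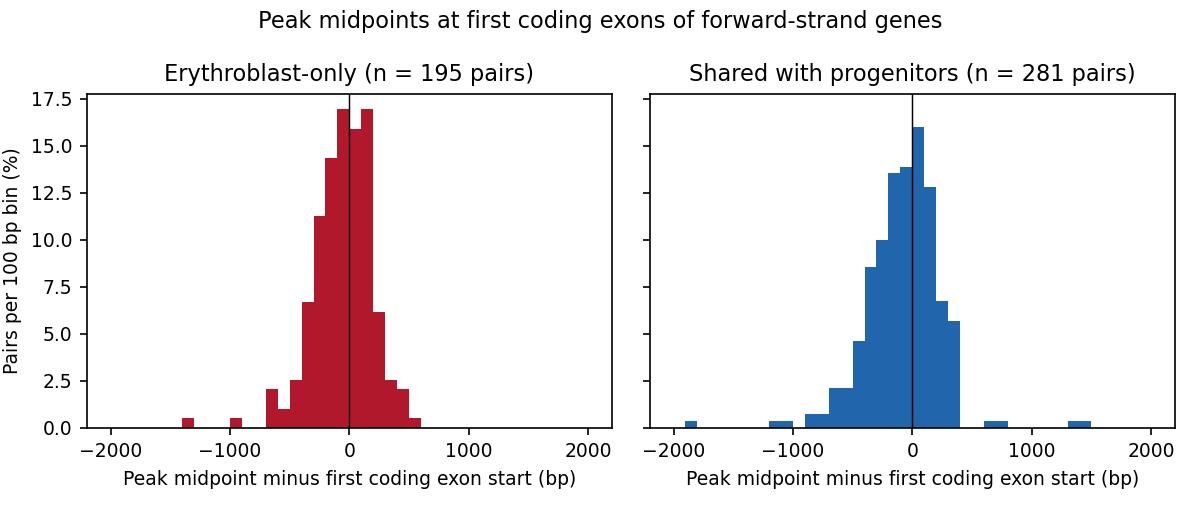
Distance in bp from the first coding exon's start to the peak midpoint (x axis, negative is upstream) for forward-strand genes, as the percentage of pairs per 100 bp bin (y axis), for erythroblast-only peaks (left, n = 195 pairs) and peaks shared with progenitors (right, n = 281 pairs with a matched position). The medians are -40 and -52 bp, for peaks that were chosen for nearness to an exon start.

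The peaks were spread over 20 chromosomes. Chromosome 7 held most, 81 (11.7%, with 8.52% of the listed exon starts and 7.02% of the shared peaks near exons), followed by chromosome 11 with 61 and chromosome 2 with 49. Chromosome X held 9 and chromosome 18 held 6. Another of the 691 lay within 20 kb of 104 peaks (15.1%), and 2 windows of 300 kb held 7 each. In one of them, on chromosome 8 from 87185236 to 87427800, peaks lay at Ier2, Trmt1, Lyl1, Gadd45gip1, Syce2 and Klf1 among others, and the enrichments of these 6 ran from 6.88 at Ier2 to 22.7 at Klf1. RNA coverage of these 6 genes did not move together: Ier2, Trmt1, Lyl1 and Syce2 were at least 2-fold lower in erythroblasts, and Gadd45gip1 (27.1 in erythroblasts, 37.5 in progenitors) and Klf1 (145 in erythroblasts, 73.9 in progenitors) were under 2-fold.

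The strongest peaks lay at alpha-globin, at a glucose transporter and at genes of splicing and mitochondria. The highest enrichment, 45.4, was at alpha-globin, where the near-identical copies Hba-a1 and Hba-a2 are counted as 1 item, Hba-a1/Hba-a2 (chromosome 11, 32195322 to 32200936), and 30.3 was reached at its second copy (32182487 to 32188033). Slc2a1, the glucose transporter GLUT1, had the widest peak of the 691, 11.8 kb, which covered 8 of its exon starts with an enrichment of 35.0 (chromosome 4, 118800319 to 118812086). Mrpl20, a mitochondrial ribosomal protein gene, had 35.6 over its first coding exon (chromosome 4, 155176621 to 155178194). Kcnn4, the calcium-activated potassium channel of the red cell, had 27.5 (chromosome 7, 25160135 to 25163002). Also among the 10 highest were the peaks at the splicing factor genes Srsf5 (28.1) and Luc7l3 (25.7), at Slc25a39 (25.7), which carries glutathione into mitochondria, and at Car2 (25.6), carbonic anhydrase 2.

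By -log10 p the strongest peaks were all at least 5 kb wide. The 5 highest were both alpha-globin peaks (164 and 145), Slc2a1 (148), Tmcc2 (123) and Hbb-b2/Hbb-bt (99.4). The Tmcc2 peak (chromosome 1, 134251780 to 134259829) was the second widest at 8.05 kb, and the peak at Ucp2, a mitochondrial carrier gene, was the third at 7.44 kb (chromosome 7, 107648346 to 107655787) with an enrichment of only 5.68. The narrowest, 751 bp, was at the DNA repair gene Ercc1 (chromosome 7, 19936470 to 19937220) with 9.08.

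The 691 peaks were near 700 named genes, and the shares of these that rose or fell by 2-fold were near those of all genes. Of the peaks 654 were near 1 gene, 34 near 2, 1 near 3, and 2 near exons with no gene name. All 700 genes had a coverage of at least 1 in at least 1 stage. Coverage is a signal summed over a gene's listed exons and not divided by length, so it is compared for the same gene only, as log2((erythroblasts + 1) / (progenitors + 1)). Here rose and fell mean a difference of at least 1 on this scale, which is 2-fold. By that rule 115 of the 700 rose (16.4%, Wilson 13.9 to 19.4%), beside 15.3% of all 5194 genes, and 87 fell (12.4%, 10.2 to 15.1%), beside 13.2%. Among the 837 genes near a shared peak and none of the 691, 128 rose (15.3%) and 98 fell (11.7%). Over the 700 the median log2 difference was 0.04 with quartiles of -0.58 and 0.76, beside 0.03, -0.57 and 0.65 over all genes. With a pseudocount of 5 the share that rose was 12.6%, beside 9.86% of all genes, and the share that fell 8.29%, beside 7.91%. Genes near a peak had more listed exons, a median of 4 against 3 over all genes, and so more places where a peak could count as near.

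**Figure D3:**
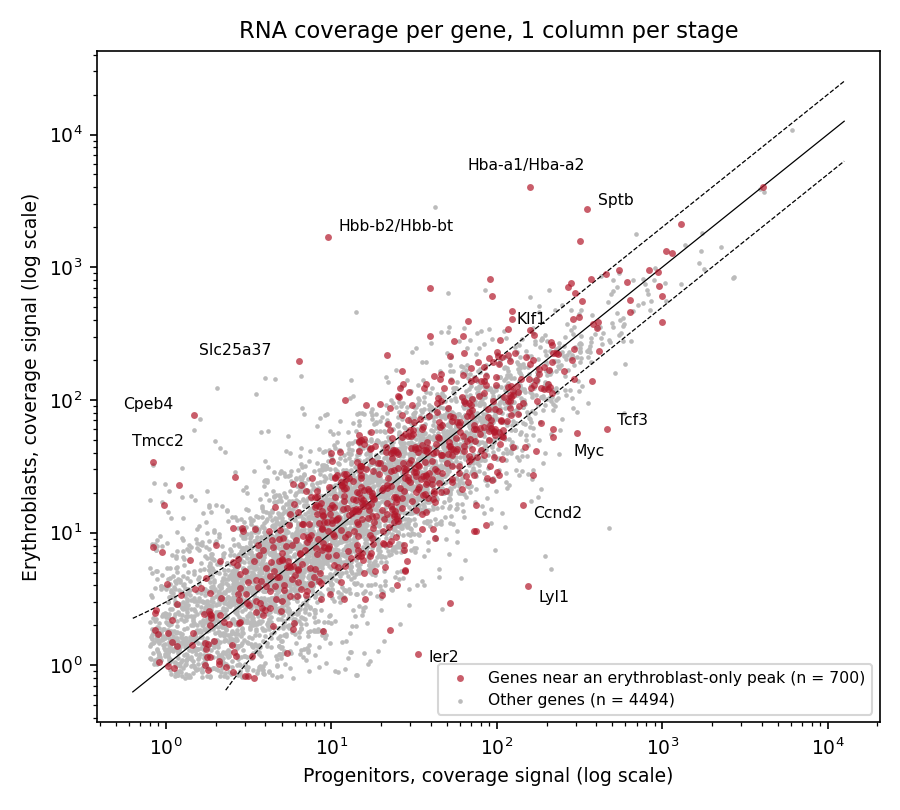
RNA coverage signal of each gene in progenitors (x axis, log scale) and erythroblasts (y axis, log scale), 1 column per stage; red points are the 700 genes within 1 kb of an erythroblast-only peak, grey points the other tested genes, the solid line is equality and the dashed lines are the 2-fold rule. Red points fill the whole grey cloud, with 115 above the upper dashed line and 87 below the lower.

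The largest rises among genes near a peak included globins and a mitochondrial iron importer. Hbb-b2/Hbb-bt, beta-globin copies that can share reads, had a coverage of 1686 in erythroblasts, against 9.59 in progenitors, a log2 difference of 7.32 on 1 listed exon. Hba-a1/Hba-a2, whose near-identical copies can also share reads, had 4043 in erythroblasts, against 159 in progenitors (4.66, SD 0.04 over 2 listed exons). The 2 exons may therefore not be independent, and the small SD is not read as agreement between them. Both globins were far higher in the erythroblast column. Cpeb4, an RNA-binding regulator of translation, had 76.8 in erythroblasts, against 1.49 in progenitors (4.97, 1 exon). Slc25a37, the mitochondrial iron importer mitoferrin 1, had 196 in erythroblasts, against 6.42 in progenitors (4.73, 2 exons). Tmcc2, which encodes a membrane protein with coiled coils, had 33.8 in erythroblasts, against 0.831 in progenitors (4.25, 1 exon). Also among the 10 largest were Ppp1r15a (4.11), a phosphatase subunit of the stress response, Ufsp1 (3.44), a UFM1 protease, Ank1 (3.15, all 31 exons higher) and Nudt18 (3.12).

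The largest falls included genes of transcription factors and growth regulators. Lyl1, which encodes a transcription factor related to SCL, had 3.98 in erythroblasts, against 154 in progenitors (-4.96, SD 0.92 over 3 exons). Its peak was 6.64 kb wide with an enrichment of 20.1, and Lyl1 also had a shared peak within 1 kb. Tcf3, which encodes the E proteins that pair with such factors, had 60.1 in erythroblasts, against 461 in progenitors (-2.92), and all 17 of its exons were lower in erythroblasts. It had 2 of the erythroblast-only peaks, with enrichments of 8.20 and 6.94. Ier2 (-3.95), an immediate early gene, and Riox1 (-3.75), a ribosomal oxygenase, followed on 1 exon each. Ccnd2 (-3.08), a D-type cyclin, Nrm (-3.05), of the nuclear envelope, Eef2k (-2.82), the kinase of elongation factor 2, the histone methyltransferase gene Ehmt2 (-2.75), Irf2bp2 (-2.69) and Nop2 (-2.56) completed the 10. Each of the 10 fell in every listed exon.

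Genes that fell took a larger share of the peaks with low enrichment than of those with high enrichment. The peaks with a tested nearest gene, 689 in all, were divided into 4 equal classes of enrichment. In the lowest class (3.41 to 8.27) the nearest gene fell for 32 of 173 peaks (18.5%, 13.4 to 24.9%), in the next ones for 22 and 21 of 172, and in the highest (13.6 to 45.4) for 11 of 172 (6.40%, 3.61 to 11.1%). The nearest gene rose for 29 (16.8%), 31 (18.02%), 27 (15.7%) and 32 (18.6%), with no such order. For the 30 peaks with the highest enrichment (20.4 to 45.4) the nearest gene rose for 10 and fell for 0. Both alpha-globin peaks, which share 1 RNA item, are counted among the 10. A count of 0 of 30 allows a share of up to 11.4% (Wilson), and it depends on the cut. The peak at Lyl1, the gene with the largest fall, lay just below it with 20.1. Beside these counts, 15.3% of all genes rose and 13.2% fell. For shared peaks near exons the share that fell was 14.3% in the lowest class and 10.5% in each of the higher ones. Classes of -log10 p gave no such order, with 24, 17, 28 and 17 falls, and over the 689 peaks enrichment and the log2 RNA difference had a Spearman correlation of 0.08 and a Pearson correlation of 0.14 (with enrichment on the log2 scale), for peaks that share 1 library. The difference between the classes was not tested, and they were drawn after the values were seen.

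**Figure D4:**
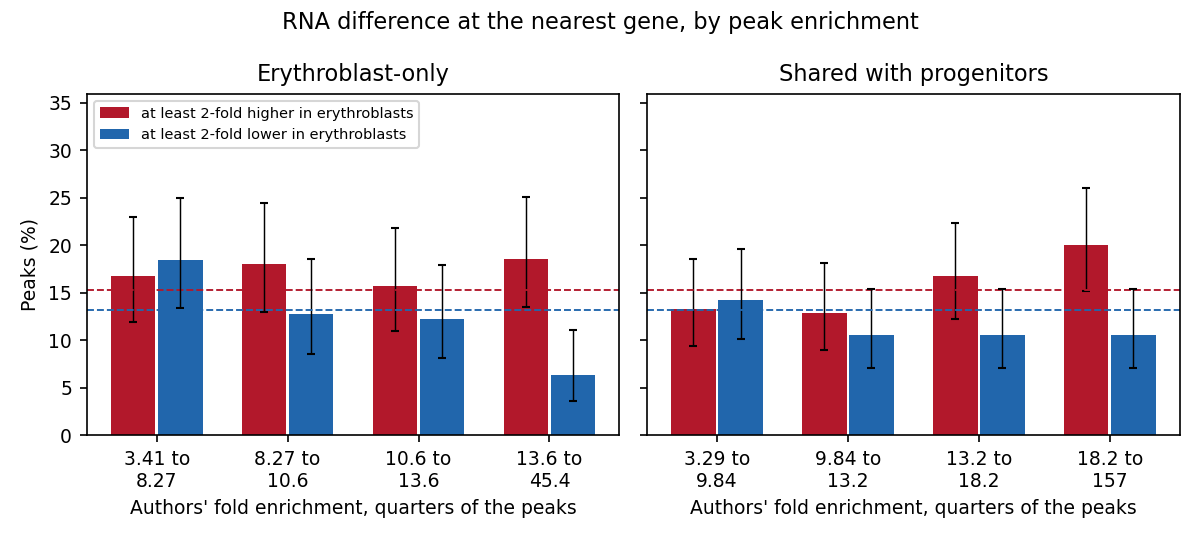
Percentage of peaks (y axis) whose nearest gene was at least 2-fold higher (red) or lower (blue) in erythroblasts, by 4 equal classes of the authors' fold enrichment (x axis), for erythroblast-only peaks near exons (left) and shared ones (right); error bars are Wilson 95% intervals for counting error and dashed lines the shares over all genes, 15.3 and 13.2%. Blue bars on the left run from 18.5% in the lowest class to 6.40% in the highest.

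Most of the 10 widest peaks stood at genes that rose, but not most of the 20 or 30 widest. Of the 10 peaks at least 5 kb wide, 7 had a nearest gene that rose, namely Slc2a1, Tmcc2, Ucp2, Slc25a37, Hbb-b2/Hbb-bt and both alpha-globin copies, which share 1 RNA item. The nearest gene of 1 fell (Lyl1), and Pcnx3 and 4930404N11Rik did neither. Of the 20 widest peaks the nearest gene rose for 8 and fell for 4. Of the 30 widest it rose for 9 and fell for 7. For the 37 peaks at least 3 kb wide the nearest gene rose for 12 and fell for 9. Of the 652 narrower peaks it rose for 107 and fell for 77. Of 64 shared peaks near exons at least 3 kb wide it rose for 9 and fell for 13. Over all genes 15.3% rose and 13.2% fell. The cuts in width were chosen after the values were seen, and the difference between them was not tested. Ucp2 had a coverage of 814 in erythroblasts, against 369 in progenitors, and all 6 of its listed exons were higher.

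Genes of hemoglobin, heme and the red cell membrane near a peak rose, except Xk, and most genes of the whole lists rose as well. Both listed globin items had a peak. Of 25 listed heme and iron genes 4 were near a peak (16.0%, where 700 of all 5194 genes were) and all 4 rose, while 15 of the 25 rose and 1 fell in all. Besides Slc25a37 these were Cpox, an enzyme of heme synthesis, with 755 in erythroblasts, against 281 in progenitors (1.42), Abcb6, a porphyrin transporter, with 90.8 in erythroblasts, against 16.3 in progenitors (2.41), and Slc25a39 with 123 in erythroblasts, against 47.7 in progenitors (1.35). The Cpox peak covered its first coding exon (chromosome 16, 58669696 to 58671716) with an enrichment of 18.9. The Slc25a37 peaks numbered 2, of which the stronger was 6.61 kb wide (chromosome 14, 69857643 to 69864249, enrichment 17.03). A shared peak lay near 10 of the 25 listed heme and iron genes, against 4 near an erythroblast-only peak.

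Of 18 listed membrane and skeleton genes 6 were near a peak, 5 rose and none fell, while 16 of the 18 rose in all. Near a shared peak were 0 of the 18. Sptb, beta-spectrin, had 2756 in erythroblasts, against 353 in progenitors (2.96, all 31 exons higher). Ank1, the ankyrin that ties spectrin to the membrane, had 817 in erythroblasts, against 91.0 in progenitors, and its peak (chromosome 8, 24195742 to 24198583) covered 2 exon starts with an enrichment of 9.92. Gypc, glycophorin C, rose by 1.89 on 2 exons, the blood group gene Ermap by 1.19 and Slc2a1 by 1.65. Xk, the partner of the Kell blood group protein, had 17.5 in erythroblasts and 30.6 in progenitors, under the rule.

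Of 20 listed erythroid transcription factor genes 6 were near a peak, of which Lmo2 and Mafg rose, Lyl1 fell and 3 did neither, while 8 of the 20 rose and 1 fell in all. Near a shared peak were 4 of the 20. Lmo2, a bridging partner of the GATA1 complex, had 65.8 in erythroblasts, against 22.03 in progenitors (1.54), and its peak covered 3 exon starts with an enrichment of 18.2. Mafg, a small Maf partner, had 10.9 in erythroblasts, against 2.87 in progenitors on 1 exon. Klf1 had 145 in erythroblasts, against 73.9 in progenitors (0.96), Zfpm1, the GATA1 cofactor FOG1, had 893 in erythroblasts, against 457 in progenitors (0.97) and also had a shared peak within 1 kb, and Zbtb7a had 21.2 in erythroblasts, against 16.8 in progenitors. The Klf1 peak (chromosome 8, 87425111 to 87427800) covered 2 exon starts with an enrichment of 22.7. The Klf1 difference varied between its exons with an SD of 1.32, and by the median of exon log2 ratios Klf1 (1.30) and Zfpm1 (1.65) passed the rule. Klf6 stood at the threshold without reaching it (1.23 with a pseudocount of 0.1), with 6.06 in erythroblasts and 2.53 in progenitors, under a peak with an enrichment of 21.95 (chromosome 13, 5859788 to 5861218).

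Cell cycle genes near a peak went both ways. Of 15 listed G1 regulators 6 rose and 2 fell in all, and 4 were near a peak: Ccnd3 had 407 in erythroblasts, against 124 in progenitors (1.70), and Ccnd2 had 16.1 in erythroblasts, against 143 in progenitors (-3.08). The E2F genes E2f2 (33.5 in erythroblasts, 27.3 in progenitors) and E2f4 (94.1 in erythroblasts, 143 in progenitors) were under the rule, although by the median of exon log2 ratios E2f4 was higher in erythroblasts (0.29), and the E2f2 peak had one of the higher enrichments, 23.2 (chromosome 4, 135733009 to 135735104). E2f2 and Ccnd3 also had a shared peak within 1 kb, as did 6 of the 15 G1 regulators in all. The S phase and mitosis list had 33 listed genes, of which 7 rose and 3 fell in all and 11 were near a shared peak. Among the 7 near a peak the ribonucleotide reductase gene Rrm1 (192 in erythroblasts, 95.4 in progenitors) and Cdc25b (7.18 in erythroblasts, 0.943 in progenitors, 1 exon) rose, and the licensing genes Mcm2 and Mcm5, with Cdc20, Aurka and Plk1, did neither. Rrm1 stood at the threshold and was under it with median ratio scaling (0.97). Myc, the single member near a peak among 3 listed stem and progenitor genes, had 55.9 in erythroblasts, against 307 in progenitors (-2.44).

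Most maturation genes near a peak rose and most ribosome biogenesis genes fell, as in the whole lists. Of 23 listed autophagy and maturation genes 4 were near a peak and 3 rose, namely the ubiquitin ligase family gene Trim10 (26.3 in erythroblasts, 2.63 in progenitors), the survival kinase gene Pim1 (106 in erythroblasts, 25.3 in progenitors) and the autophagy gene Gabarap (71.8 in erythroblasts, 34.1 in progenitors), while 15 of the 23 rose in all. With a pseudocount of 5 the Gabarap difference was 0.97. Gabarap, Pim1 and Ube2o also had a shared peak within 1 kb. The ubiquitin ligase gene Ube2o had 17.2 in erythroblasts and 11.9 in progenitors. Of 22 listed ribosome biogenesis genes 4 were near a peak, and Nop2 (27.3 in erythroblasts, 166 in progenitors), Rrs1 (9.12 in erythroblasts, 42.3 in progenitors) and Ddx21 (25.6 in erythroblasts, 87.6 in progenitors) fell, while 12 of the 22 fell in all. Of 19 listed antioxidant genes 8 rose and 1 fell in all, and 4 were near a peak. Blvrb (608 in erythroblasts, 93.5 in progenitors), a heme breakdown reductase, and Prdx6 (470 in erythroblasts, 124 in progenitors) rose, and Prdx3 and Pgd did neither. Of 13 listed glycolysis genes 5 rose and 0 fell in all, and 5 were near a peak: Tpi1 (708 in erythroblasts, 269 in progenitors) and Slc2a1 rose, and Pfkl, Aldoa and Eno1/Eno1b did neither. Of 37 chromatin modifiers 2 were near a peak and of 37 ubiquitin enzymes 4, and none of these 6 rose or fell, although Kdm5c and Ube2k passed the rule by the median of exon log2 ratios (1.14 and 1.03). In the whole lists 2 chromatin modifiers rose and 5 fell, and 10 ubiquitin enzymes rose and 2 fell. Of 21 listed genes published as dependent on EKLF 6 were near a peak, of which Hbb-b2/Hbb-bt, Ank1 and Sptb rose and E2f2, E2f4 and the porphyrin exporter gene Abcg2 did neither, while 13 of the 21 rose and 1 fell in all. Abcg2 was lower in erythroblasts (-0.91) and passed the rule as lower with a pseudocount of 0.1 (-1.04) and by the median of exon log2 ratios (-1.08). Of 16 erythropoietin signalling genes 1 was near a peak (Pim1), and of 9 housekeeping genes 1 (Sdha, 97.5 in erythroblasts, 117 in progenitors). Near a shared peak were 8 autophagy and maturation genes, 5 of ribosome biogenesis, 8 antioxidant genes and 0 of glycolysis. So were 7 chromatin modifiers, 11 ubiquitin enzymes, 6 genes published as dependent on EKLF, 2 erythropoietin signalling genes and 3 housekeeping genes.

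**Figure D5:**
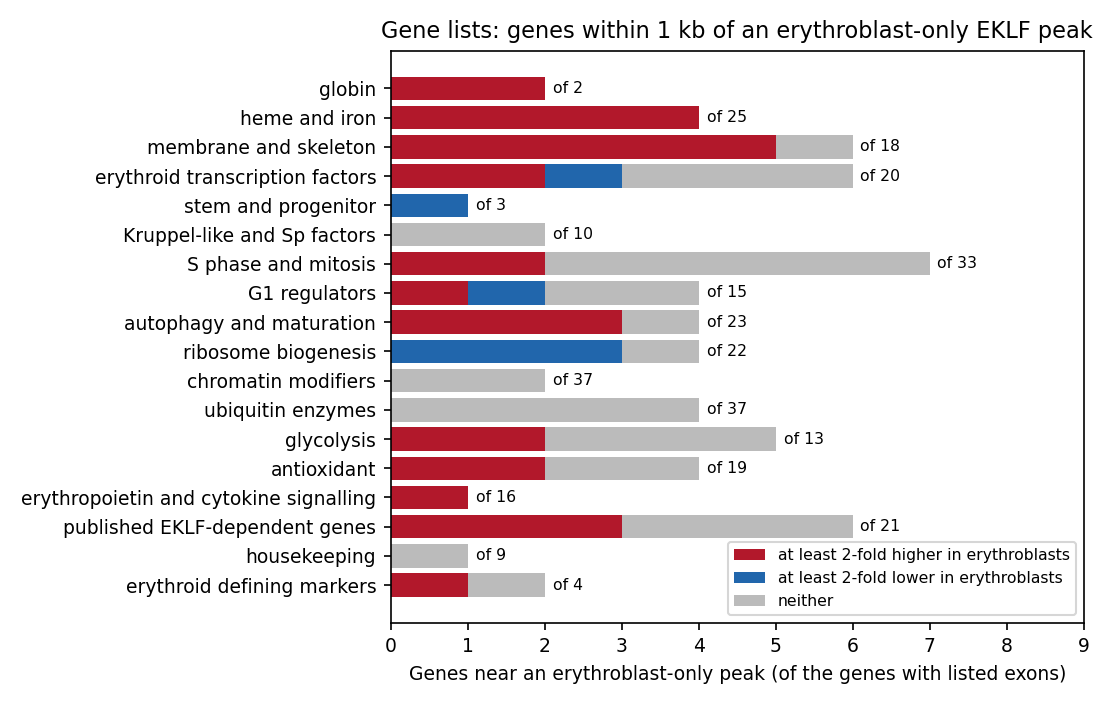
Number of genes of each list (y axis) that lay within 1 kb of an erythroblast-only peak (x axis), coloured by whether RNA coverage was at least 2-fold higher (red) or lower (blue) in erythroblasts or neither (grey); the figure beside each bar is the number of the list's genes with listed exons, and a gene can be on more than 1 list. The 4 heme and iron genes and 5 of 6 membrane genes are red, and 3 of 4 ribosome biogenesis genes are blue.

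Few genes carried more than 1 of these peaks. Of the 700 genes 676 had 1, 23 had 2 and 1 had 3, and 35 also had a shared peak within 1 kb. Gmpr, the gene with 3, had 276 in erythroblasts, against 54.8 in progenitors (2.31), and all 8 of its listed exons were higher. Its peaks on chromosome 13 lay from 45601982 to 45603963 with an enrichment of 17.4, from 45611966 to 45613172 with 10.8 and from 45622585 to 45624086 with 8.27. Nprl3, whose introns are known to hold the major alpha-globin enhancers, had 2 peaks, the stronger from 32166805 to 32168771 on chromosome 11 with 20.4. With the 2 at alpha-globin they made 4 peaks between 32164762 and 32200936. Nprl3 had 46.2 in erythroblasts, against 15.8 in progenitors (1.49, all 8 exons higher). Slc25a37, Slc2a1, E2f4, Tcf3, Zfpm1 and Ehbp1l1 were among the genes with 2.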

How the data were processed

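Peak lists and exon RNA values of 7 libraries were analysed in build mm9, named in the submitters' processing notes. Per the labels, input libraries were the background for peak calling. The tools for alignment, peak calling and counting were not given in the sources used here. In the deposited peak lists column 7 was read as the authors' fold enrichment and column 8 as the authors' -log10 p. Each is the peak's own value and is read within 1 list only. Peak ranks follow -log10 p, then enrichment.

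The deposited RNA values, named RPKM, are read as a coverage signal per coding exon, since 100% of them lay within 0.05 of whole multiples of a single step for each column, whatever the exon. Library depth is unknown, and it is unstated which erythroblast libraries entered their column, so no SD over libraries, n or test exists. Per the labels, at least 3 sorts of each population were made.

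Of 6853 RefSeq transcripts 6772 matched a symbol (GRCm38.p6 names only). For each gene the transcript with most listed exons was summed, and genes with the same exon positions were joined. This gave 5214 items, of which 5194 had at least 1 in a stage. SDs over exons describe spread within a gene. The member rule, the gene lists and the named items were chosen with earlier results of these data known. Named were the 10 strongest peaks, the 5 highest -log10 p, the widest and narrowest, the edge of the window, list members, the 10 genes that rose and fell most among those reaching 5, genes with 3 peaks and up to 6 promoters, of which the 5 shown were picked by role among genes with a RefSeq window. The 4 classes of enrichment, the width classes and the 300 kb windows were chosen after seeing the data, as were names outside that rule. A few items that meet the rule are not reported here. Overlap, distance and fold steps were tested on simulated data. Python 3.11.15, pandas 2.3.3, numpy 2.4.6, scipy 1.17.1 and matplotlib 3.10.9 were used.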

Additional observations from a re-analysis of the deposited data

How the results depend on the processing

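Of 691 peaks 333 had a -log10 p of at least 10 and 326 ranked above the list's median. With the first filter the share covering an exon start was 81.4%, the median width 1870 bp and the median enrichment 13.6. Among those 326 the share was 81.6%, and 53 genes rose and 42 fell (15.5 and 12.2% of 343), since fewer peaks were counted. Other overlap and distance rules gave 555 to 823 peaks. Other pseudocounts, filters, scalings, exon summaries, windows and gene choices, of which requiring 2 listed exons, leaving out genes with a shared peak and taking 1 gene per peak were chosen after seeing the data, gave 88 to 145 genes that rose and 58 to 106 that fell, all within 1.5 times of 115 and 87. With a pseudocount of 5 the share that rose was 12.6%, against 9.86% over all genes, a wider gap than the 16.4 and 15.3% reported, and the share that fell 8.29%, against 7.91%. CACCC was in 61.2% of the promoter windows of genes near a peak, and the exact CCACACCC, added after seeing the data, in 3.85%, against 60.8 and 3.53% over all tested genes. No paired analysis was possible because each stage has 1 peak list and 1 RNA column. For the same reason no replicate could be left out. Peaks near unlisted exons, and genes below 0.800 in either stage, were not analysed here.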
